A study of Mus musculus with 18 samples.

Results

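The translation initiation factors are the proteins that bring the small ribosomal subunit, the initiator tRNA and the mRNA together at a start codon. The set described here holds the 51 protein-coding genes of the GENCODE M21 mouse annotation whose symbol begins with Eif1 to Eif6, without the Eif2ak kinases, out of 46167 genes with a listed transcript. They carry 272 of the 110403 matched transcripts, and all 51 genes passed the filter on low counts that left 17500 genes for testing.

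The cells were hematopoietic progenitors of CD-1 mice, taken from E14.5 fetal liver by depletion of mature cells with an antibody to CD71 added, and they were infected with an MSCV-PIG retrovirus that expresses a short hairpin RNA together with puromycin resistance and GFP. Control libraries carried scrambled (SCR-1, SCR-2) or luciferase (LUC-1) hairpins, and the knockdown libraries carried hairpins SH1, SH3 and SH4 against Pcbp1 or Pcbp2, which encode poly(C)-binding proteins that act in splicing, stability and translation of mRNA. Day 0 cells were taken from expansion medium with dexamethasone, stem cell factor and erythropoietin, and Day 2 cells after 2 further days in differentiation medium with a higher dose of erythropoietin. Each of the 6 groups (control, PCBP1 knockdown and PCBP2 knockdown at each day) held 3 bulk RNA libraries. The 3 libraries of a knockdown group carry different hairpins, and no label says whether SCR-1 and SCR-2 are different scrambled sequences. No label says that the libraries of a group came from separate mice or cultures, so p-values measure only the spread between these libraries. The series was made to examine what PCBP1 and PCBP2 do in mouse erythropoiesis.

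Initiation works in steps. eIF1, eIF1A and eIF5 help the scanning small subunit to select the start codon, eIF5B joins the large subunit, eIF2 delivers the initiator tRNA, and eIF2B exchanges the guanine nucleotide on eIF2 so that it can be used again. eIF3 is the large scaffold on the small subunit, and the eIF4 group binds the cap and unwinds the mRNA leader, while the eIF4E-binding proteins hold the cap-binding protein back. Maturing erythroblasts condense their nucleus, lose most of their transcripts and devote translation largely to globin.

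Each library held between 27033440 and 54096339 estimated reads. In the PCBP1 knockdown libraries, Pcbp1 lay between 14.2 and 59.4 CPM (counts relative to the library size, scaled with edgeR's TMM factors) at Day 0 and between 15.6 and 57.2 at Day 2, against 186 to 284 in the 6 control libraries. In the PCBP2 knockdown libraries, Pcbp2 lay between 70.3 and 73.5 CPM at Day 0 and between 37.0 and 48.0 at Day 2, against 225 to 299 in the controls. The 6 progenitor markers (Kit, Cd34, Gata2, Myb, Hlf, Meis1) summed to 296 to 351 TPM (the deposited level per transcript length) at Day 0 and to 4.19 to 8.59 at Day 2. Hlf was under 1 TPM in every group. The 6 granulocyte markers summed to 2113 to 3011 TPM at Day 0 and 662 to 1548 at Day 2, while on the TMM scale 3 of them rose and 3 fell in the controls. All 5 hepatocyte markers were under 1 TPM in every Day 2 group. Globin transcripts took 0.301 to 0.485% of reads at Day 0 and 24.7 to 33.5% at Day 2, with the highest share in the LUC-1 library. In such bulk RNA, fewer cells of a type and less RNA per cell cannot be told apart.

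Between Day 0 and Day 2 the make-up of the initiation factor mRNA changed from a mixture in which the largest mean share was 12.04% to one led by a single gene, Eif5. Within a library, the share of a gene in the summed TPM of the 51 members needs no scaling between libraries. Eif5, which encodes the factor that triggers GTP hydrolysis on eIF2 at the start codon, made up 1.99% ± 0.05 of that sum in the Day 0 controls and 45.3% ± 1.09 in the Day 2 controls (SD, n = 3 each). It moved from rank 20 to rank 1 among the members. Its share at Day 2 was 43.6% ± 1.70 with PCBP1 knocked down and 45.6% ± 2.61 with PCBP2 knocked down. Eif1, whose product keeps the scanning subunit from settling on a wrong codon, went from 7.07% ± 0.34 to 15.3% ± 0.36 of the sum. The 7 genes of start codon selection and subunit joining thus went from 12.02% ± 0.25 to 62.4% ± 0.55. All other groups but the eIF4E-binding brakes took a smaller share at Day 2: the 14 eIF3 genes went from 31.8% to 11.3%, the 12 genes of the eIF4 group from 30.4% to 10.9%, and the 5 eIF2B genes from 2.86% to 0.446%. The shares of a library add up to the whole, so the rise of Eif5 by itself makes every other share smaller. A smaller share is therefore not by itself a fall relative to the members other than Eif5, and shares without Eif5 were not computed. Eif5a, the factor modified with hypusine, had the largest share at Day 0 with 12.04% ± 0.32 and 7.09% ± 0.46 at Day 2, and the cap helicase Eif4a1 went from 9.17% ± 0.38 to 2.22% ± 0.29.

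**Figure D1:**
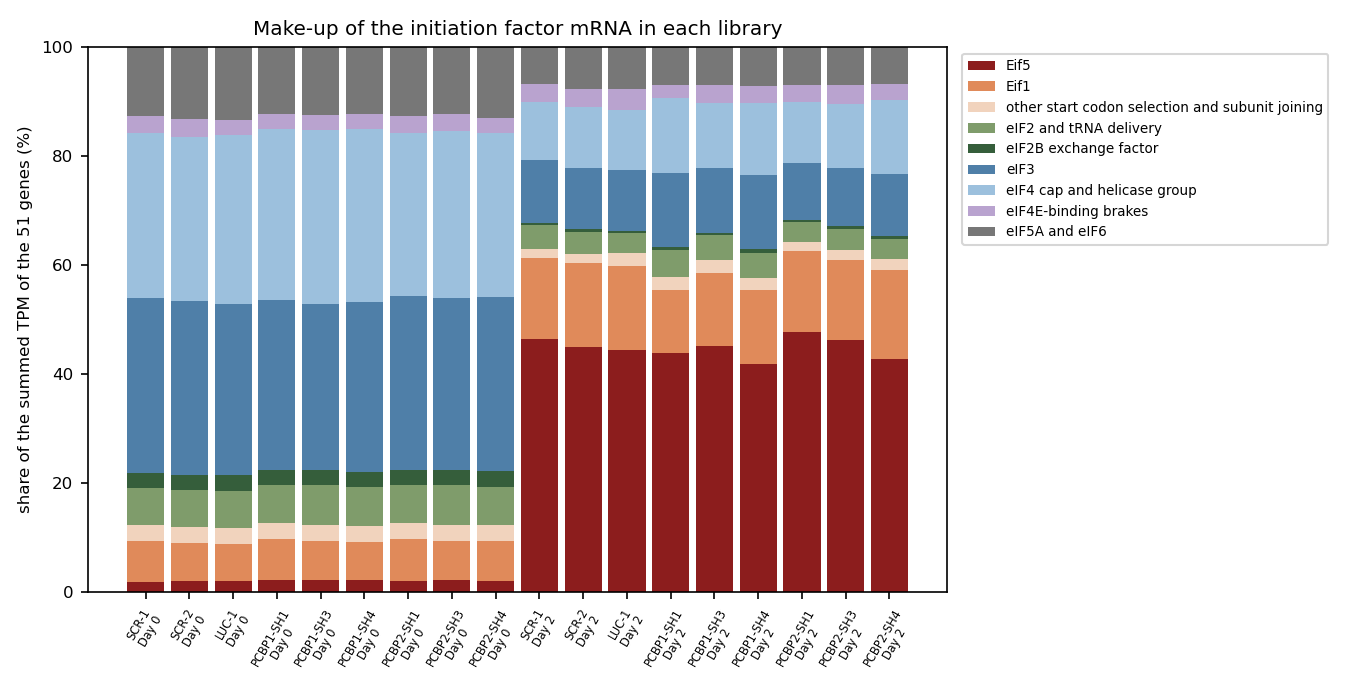
Make-up of the initiation factor mRNA in the 18 libraries, as percent of the summed TPM of the 51 genes, stacked by gene or role. Eif5 fills 1.94 to 2.30% of each Day 0 bar and 41.8 to 47.8% of each Day 2 bar.

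The set as a whole took less of the library at Day 2. Members held 1.75 to 1.88% of reads in the 9 Day 0 libraries and 0.931 to 1.16% in the 9 Day 2 libraries. With globin reads left out of the total, the shares were 1.76 to 1.88% and 1.36 to 1.58%, which still did not overlap.

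Gene by gene, 46 of the 51 members passed the test between the days in the control libraries (edgeR quasi-likelihood test, Benjamini-Hochberg adjusted p under 0.05), 13 higher and 33 lower at Day 2. Of all 17500 genes tested, 82.8% passed, 40.4% higher and 42.4% lower, so the number of members that passed is little above the background and the split leans further to lower values. The median log2 fold change was -0.85 over the members and -0.05 over all genes tested. The choice of scale moves these counts. The TMM factors were 1.65 to 1.74 at Day 0 and 0.503 to 0.646 at Day 2. With plain library totals the median of all genes shifted by -1.63 and 3 members were higher and 43 lower. With globin reads left out of the totals that median shifted by -1.04, and 6 members were higher and 41 lower. The 33 members called lower had a negative log2 change on each of these scales. Of the 13 called higher, Eif5, Eif2d and Eif4e1b stayed higher and past the threshold on all of them.

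**Figure D2:**
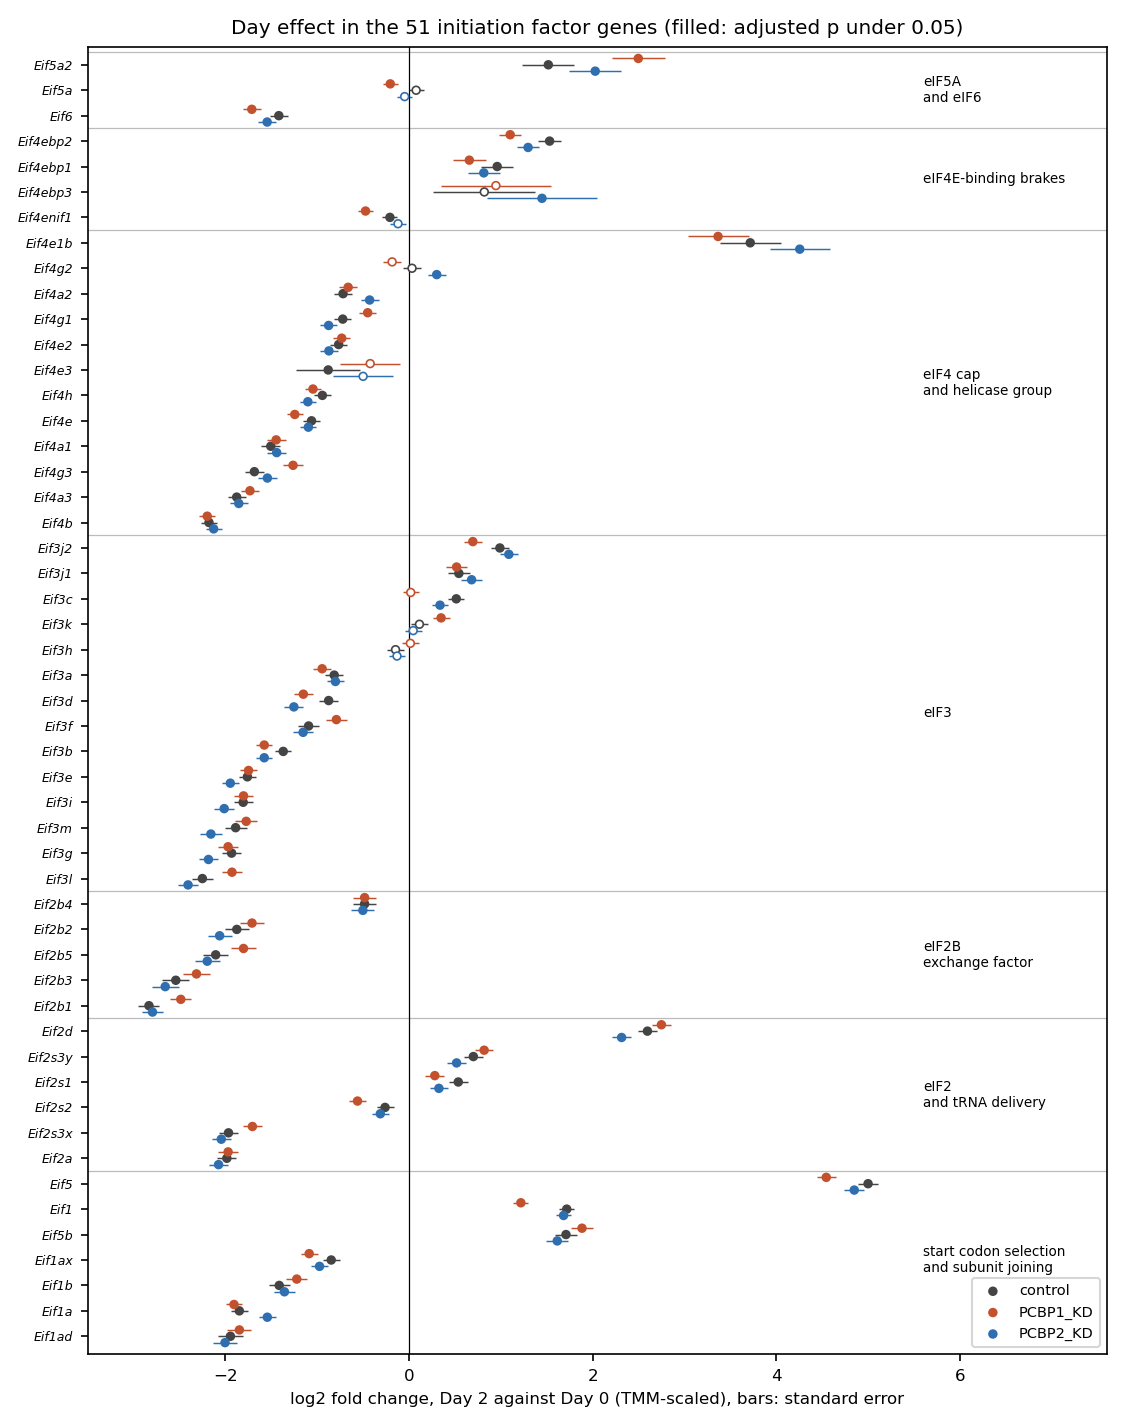
Log2 fold change from Day 0 to Day 2 (TMM-scaled, horizontal axis) of the 51 genes in control, PCBP1 knockdown and PCBP2 knockdown libraries, with standard errors, grouped by role and filled where the adjusted p is under 0.05. Eif5 stands at the right with 5.00, 4.54 and 4.85, and the 5 eIF2B genes lie left of zero in each condition.

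In the group of start codon selection and subunit joining, 3 of 7 genes were higher and 4 lower. Eif5 (chr12:111538016-111546752, plus strand) had 314, 326 and 348 CPM in the control libraries SCR-1, SCR-2 and LUC-1 of Day 0, and 11207, 10295 and 10082 CPM in those of Day 2. Values of 3 control libraries are given in this order from here on. Every Day 2 library was more than an order of magnitude above every Day 0 library, and between 149836 and 220766 estimated reads lay behind each Day 2 value. The log2 fold change was 5.00 ± 0.11 (SE), a 32.0-fold rise, with an adjusted p of 4.66e-22 in edgeR's quasi-likelihood test. With library totals the log2 change was 3.37, and with globin-free totals 3.89. An annotated small nucleolar RNA gene lies within an intron of Eif5. The sequence just before the 5′ end of the annotated gene is shown because no other member changed as much. It is the part of the RefSeq window on GRCm38.p6 that ends at the annotated gene, chr12:111537851-111538015, plus strand, with nothing in capitals because it holds none of the motifs searched among the members:
Eif5 upstream: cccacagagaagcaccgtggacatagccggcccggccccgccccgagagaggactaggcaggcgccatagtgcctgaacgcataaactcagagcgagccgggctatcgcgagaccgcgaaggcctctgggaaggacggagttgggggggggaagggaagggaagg

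Eif1 had 290, 286 and 277 CPM in the controls at Day 0 and 948, 964 and 894 at Day 2, so the groups were far apart on this scale. Its log2 change was 1.72 ± 0.08 (SE; edgeR adjusted p = 2.56e-15). On library totals it was 0.09 (adjusted p = 0.387), and on globin-free totals 0.61. Eif5b, the GTPase that joins the ribosomal subunits, went from 172, 174 and 168 to 513, 472 and 695 CPM, with the LUC-1 library the highest at Day 2. Its log2 change was 1.71 on the TMM scale, 0.06 on library totals and 0.60 on globin-free totals. The genes for eIF1A, which works beside eIF1 on the scanning subunit, went the other way. So did Eif1ad, and also Eif1b, although it is close in sequence to Eif1. Eif1a stood at 98.8, 101.35 and 113 CPM at Day 0 and at 29.2, 29.9 and 27.9 at Day 2, a log2 change of -1.85 ± 0.09 (SE; edgeR adjusted p = 2.65e-15). Eif1ax, Eif1b and Eif1ad had log2 changes of -0.85, -1.41 and -1.94. Eif1 and Eif1b, and Eif1a and Eif1ax, are close in sequence, and the assignment of reads between such copies is uncertain.

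Among the 6 genes of eIF2 and of tRNA delivery, 3 were higher and 3 lower. Eif2d, which encodes a factor that can deliver tRNA to the small subunit without GTP, had 42.0, 39.9 and 39.3 CPM in the controls of Day 0 and 276, 252 and 205 in those of Day 2. All Day 2 libraries exceeded all Day 0 libraries, and the log2 change was 2.60 ± 0.10 (SE; edgeR adjusted p = 3.41e-17; 0.97 on library totals and 1.49 on globin-free totals). The annotation places the 3′ end of Eif2d over the gene Rassf5 on the opposite strand, and the strand setting of the counting is not given in the sources used here. The eIF2 subunits themselves split: the alpha subunit gene Eif2s1 had a log2 change of 0.54 and the beta subunit gene Eif2s2 -0.26, and Eif2s1 turned to -1.10 on library totals and -0.57 on globin-free totals. The gamma subunit has an X-linked and a Y-linked gene that share most of their sequence. Eif2s3x was lower by -1.97 on the log2 scale and Eif2s3y higher by 0.70, and Eif2s3y turned to -0.93 on library totals and -0.41 on globin-free totals. Eif2a, a separate factor that can bind initiator tRNA, was lower with a log2 change of -1.98.

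All 5 subunit genes of the eIF2B exchange factor fell in the controls and in both knockdowns. Eif2b1, the alpha subunit through which the complex senses phosphorylated eIF2, stood at 72.0, 72.8 and 84.6 CPM at Day 0 and at 11.02, 11.3 and 9.83 at Day 2, so that the days were far apart. The log2 change was -2.83 ± 0.11 (SE; edgeR adjusted p = 6.17e-17), and -4.46 and -3.94 on library and globin-free totals. Eif2b3, Eif2b5 and Eif2b2 had log2 changes of -2.54, -2.10 and -1.87. Eif2b4, the delta subunit gene, fell less, with a log2 change of -0.48 (edgeR adjusted p = 0.00105).

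Of the 14 eIF3 genes, 9 fell, 3 rose on the TMM scale and 2 did not pass. Eif3l, a peripheral subunit, stood at 199, 201 and 206 CPM at Day 0 and at 46.8, 46.6 and 34.0 at Day 2, with LUC-1 the lowest. Its log2 change was -2.25 ± 0.11 (SE; edgeR adjusted p = 2.64e-15). Eif3g, Eif3m, Eif3i and Eif3e had log2 changes from -1.93 to -1.76, and Eif3b, Eif3f, Eif3d and Eif3a from -1.37 to -0.81. Eif3h and Eif3k did not pass, with -0.15 and 0.11. Eif3c, a core subunit that contacts eIF1 and eIF5, was higher with 0.52, and Eif3j1 and Eif3j2, near-identical copies of the loosely bound subunit, had 0.54 and 0.99. These 3 rises turned negative on library totals (-1.11, -1.09 and -0.65) and on globin-free totals (-0.59, -0.56 and -0.12).

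Since one copy of each subunit sits in the eIF3 complex, the levels per length of the 12 eIF3 genes other than Eif3j1 and Eif3j2 were also set side by side. In the Day 0 controls their mean TPM ran from 182 for Eif3f to 473 for Eif3k, a 2.60-fold range. In the Day 2 controls it ran from 12.7 for Eif3l to 124 for Eif3k, a 9.76-fold range. At Day 2 it was 8.54-fold with PCBP1 knocked down and 10.1-fold with PCBP2 knocked down, so the mRNAs of the subunits were further apart at Day 2 in each condition.

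In the eIF4 group 10 of 12 genes were lower in the controls, 1 was higher and 1 did not pass. Eif4b, the cofactor of the eIF4A helicase, stood at 625, 609 and 591 CPM at Day 0 and at 142, 140 and 122 at Day 2, and its log2 change was -2.18 ± 0.09 (SE; edgeR adjusted p = 7.70e-17). Eif4a3, the helicase of the exon junction complex, stood at 85.1, 93.0 and 100 CPM and then at 24.9, 27.3 and 23.6, with a log2 change of -1.88 ± 0.10 (SE; edgeR adjusted p = 1.07e-14). For both genes the groups were well separated. The scaffold genes Eif4g3 and Eif4g1 had log2 changes of -1.68 and -0.72, the helicase genes Eif4a1 and Eif4a2 -1.50 and -0.72, the cap-binding protein gene Eif4e -1.06, and Eif4h, Eif4e3 and Eif4e2 -0.94, -0.88 and -0.77. Eif4g2, which encodes a scaffold without the eIF4E site, did not pass, with 1079, 1088 and 1161 CPM at Day 0 and 1078, 1049 and 1279 at Day 2. Eif4e1b, a relative of the cap-binding protein best known from oocytes, rose from 0.115 to 0.287 CPM to between 1.86 and 2.95 CPM, a log2 change of 3.72 at a very low level (edgeR adjusted p = 2.27e-10). Eif4a1 and Eif5a have processed pseudogenes, and reads can be shared with these.

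**Figure D3:**
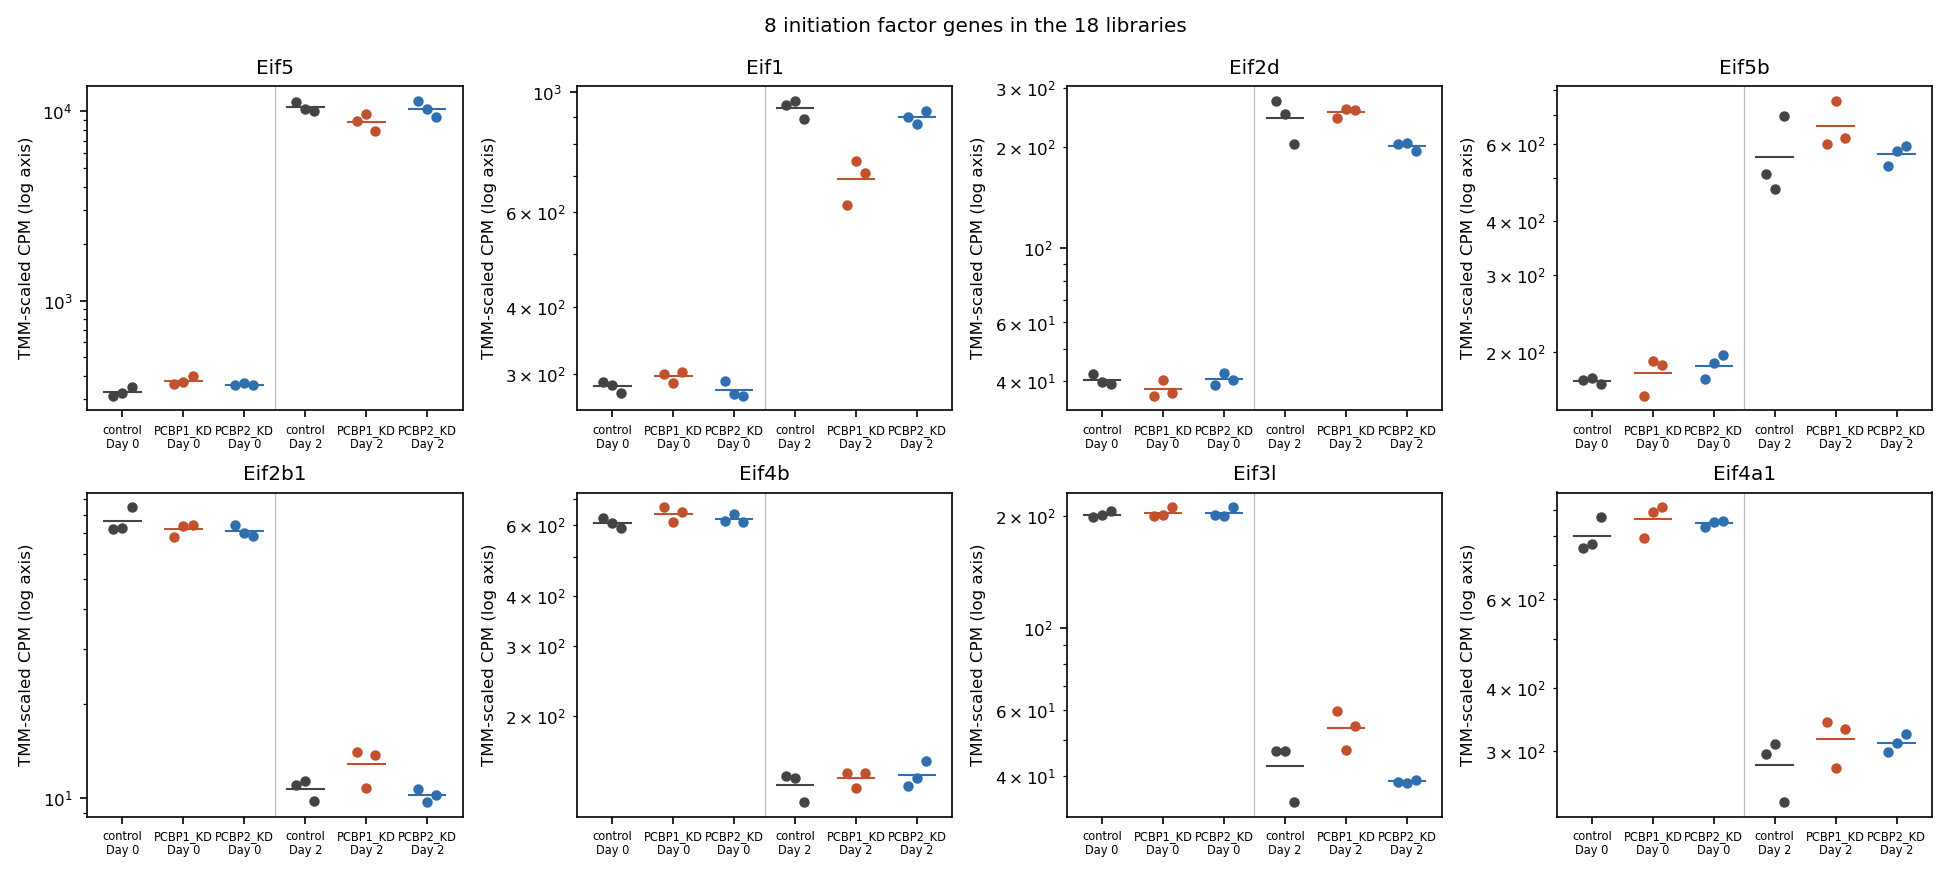
TMM-scaled CPM of 8 genes in the 18 libraries on log axes with their own ranges, as points by condition and day, with a line at each group mean. In each panel the 9 Day 2 libraries lie apart from the 9 Day 0 libraries, above them for Eif5, Eif1, Eif2d and Eif5b and below them for Eif2b1, Eif4b, Eif3l and Eif4a1.

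The promoters of the members were compared with those of all genes in RefSeq windows on GRCm38.p6. Windows were found for 39 of the 51 members (not for Eif4e3, Eif4g2, Eif3j2, Eif1a, Eif3e, Eif3i, Eif6, Eif2b3, Eif3h, Eif4ebp3, Eif4e1b and Eif4ebp1), and the 250 bases before each start were searched on both strands. The letters CACGTG, the E-box that MYC and related factors can bind, were in 9 of 39 members (23.1%) and in 6.86% of 27025 genes. The members were Eif1b, Eif3f, Eif3k, Eif4a1, Eif4e, Eif4g1, Eif4h, Eif5a and Eif5a2. In the controls 6 of these fell, 1 rose on the TMM scale (Eif5a2, -0.12 on library totals) and 2 did not pass, beside 33, 13 and 5 of all 51. Myc mRNA itself had a log2 change of -2.63 between the days, and a link between it and these letters was not tested. The letters AGATAA, also with T as the first letter, G as the last or both, which GATA factors can bind, were in 4 of 39 members (10.3%) and in 29.7% of all genes. TGATGNAA, of the kind bound by ATF4 with its partners, was in 1 of 39 members (2.56%) and in 3.91% of all genes. A match is a description of the letters and not a bound site. The 27025 genes were not limited to the 17500 tested here, and the base content of the windows was not matched. Whether these shares are particular to the members was therefore not tested. The Eif4g1 window shown lies inside the annotated gene (chr16:20668313-20692884) and not before its first annotated base. The RefSeq windows of Eif4a1 (chr11:69672424-69672673, minus strand) and Eif4g1 (chr16:20672477-20672722, plus strand), which encode the helicase and the scaffold of the cap complex, are shown with CACGTG in capitals (the first also holds a GATA match):
Eif4a1 upstream: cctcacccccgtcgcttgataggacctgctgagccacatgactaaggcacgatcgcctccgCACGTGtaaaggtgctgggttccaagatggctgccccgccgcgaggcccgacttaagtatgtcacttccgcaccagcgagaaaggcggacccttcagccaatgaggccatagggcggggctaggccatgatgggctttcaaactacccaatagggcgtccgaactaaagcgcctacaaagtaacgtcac
Eif4g1 upstream: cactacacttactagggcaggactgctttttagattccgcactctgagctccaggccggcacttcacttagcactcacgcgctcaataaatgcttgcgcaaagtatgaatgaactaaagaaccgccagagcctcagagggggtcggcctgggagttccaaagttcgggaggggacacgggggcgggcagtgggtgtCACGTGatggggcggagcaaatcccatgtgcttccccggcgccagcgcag

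Of the 4 brakes on cap binding, 2 rose on the TMM scale, 1 fell and 1 did not pass. Eif4ebp2 and Eif4ebp1, which encode proteins that hold eIF4E away from eIF4G until they are phosphorylated, had log2 changes of 1.53 and 0.96 on the TMM scale, and -0.11 and -0.67 on library totals. Eif4ebp2 stood at 93.3, 95.7 and 97.5 CPM at Day 0 and at 255, 226 and 348 at Day 2. Eif4enif1, which carries eIF4E to the nucleus, was lower by -0.21, and Eif4ebp3 lay at or under 1.42 CPM in each control library and did not pass. Of the 3 remaining members, Eif6, which keeps the large subunit from joining early, fell with -1.42, Eif5a2 had 1.52 (-0.12 on library totals), and Eif5a did not pass.

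Other genes of the pathway changed between the days as well. Of 34 tested partners and regulators of initiation, 13 were higher and 16 lower at Day 2 in the controls, and of 11 elongation and termination genes 2 were higher and 7 lower. The regulators with the smallest p were Ppp1r15a, which directs the phosphatase that resets eIF2, with a log2 change of 6.81, the heme-regulated eIF2 kinase Eif2ak1 with 4.77, the poly(A)-binding protein Pabpc1 with 3.84, and the eIF5 mimic Bzw2 with -4.32. Of 8 stress and growth genes, 6 were higher, among them Ddit3 with 6.28, Atf5 with 4.98 and Atf4 with 2.20, and Myc and Asns were lower with -2.63 and -0.93.

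Each knockdown was also tested between the days. With PCBP1 knocked down 46 members passed (beside 82% of all genes tested), 13 higher (40.3% of all genes) and 33 lower (41.7%), with a median log2 change of -0.79. With PCBP2 knocked down 46 passed (beside 83% of all genes), 15 higher (40.9%) and 31 lower (42.1%), with a median of -0.87. Eif5 had log2 changes of 4.54 and 4.85, and Eif2d of 2.75 and 2.32. With library totals the splits were 5 higher and 45 lower for PCBP1 and 5 and 43 for PCBP2, and with globin-free totals 6 and 41, and 7 and 41. On library totals the median log2 change of all genes was itself -1.466 with PCBP1 and -1.455 with PCBP2 knocked down. On globin-free totals that median was -0.988 and -0.932. The change between days was also compared with that of the controls directly. No member passed for PCBP1 (13 at an unadjusted p under 0.05 in edgeR, 5 calls in DESeq2; 0.4% of all genes passed). The members nearest the threshold were Eif1 with a difference of -0.50 (adjusted p = 0.0535), Eif3c with -0.50 (0.0733) and Eif5 with -0.46 (0.105) in edgeR's quasi-likelihood test. For PCBP2 no member passed either (4 at an unadjusted p under 0.05; none in DESeq2; 0% of all genes).

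In expanding progenitors at Day 0 neither knockdown changed a member past the threshold. For PCBP1, 0 of 51 passed in edgeR (3 at an unadjusted p under 0.05, 2 calls in DESeq2), where 0.891% of all genes did. The smallest p-values belonged to Eif4g3, with a log2 difference of -0.34 ± 0.10 (SE), Eif4e with 0.21 ± 0.09, Eif5 with 0.20 ± 0.09 and Eif3k with -0.16 ± 0.09. With the 9 libraries of Day 0 fitted alone 4 members passed, and the share of all genes that passed in that fit is not given here. For PCBP2, 0 of 51 passed (1 at an unadjusted p under 0.05, 0 in DESeq2), where 0.0229% of all genes did, and the smallest p belonged to Eif4g2, with -0.26 ± 0.10. Between the knockdowns at Day 0 no member passed (2 at an unadjusted p under 0.05, 1 call in DESeq2), where 0.257% of all genes did.

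At Day 2 the PCBP1 knockdown differed from the controls in 13 of 51 members, 5 higher and 8 lower, by edgeR's quasi-likelihood test with adjusted p under 0.05. This is 25.5% of the members, beside 13% of all genes tested (5.45% higher and 7.51% lower). The lower members with the smallest p were Eif3c and Eif1, whose products bind each other on the small subunit.

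At Day 2, Eif3c had 624, 595 and 491 CPM in the controls, 381, 424 and 393 with PCBP1 hairpins SH1, SH3 and SH4, and 513, 534 and 521 with the PCBP2 hairpins. Every PCBP1 knockdown library lay under every control library. The log2 difference from control was -0.51 ± 0.09 (SE; edgeR adjusted p = 4.42e-04), and Eif3c passed in each of 15 alternative analyses with an adjusted p from 2.54e-08 to 0.0477. Eif1, at 948, 964 and 894 CPM in the controls, had 618, 746 and 709 with the PCBP1 hairpins and 900, 874 and 924 with the PCBP2 hairpins. The PCBP1 knockdown values were again apart from both other groups, with a log2 difference from control of -0.44 ± 0.08 (SE; edgeR adjusted p = 9.55e-04), and with library totals it was -0.21 (adjusted p = 0.105). Their levels at Day 0 gave no such separation: Eif3c was 375 to 419 CPM in controls and 390 to 396 in the PCBP1 knockdown.

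The other called members rested on less. Eif5a was lower with -0.38 ± 0.08 (SE), Eif3d with -0.44 ± 0.10, Eif6 with -0.43 ± 0.10 and Eif4ebp2 with -0.46 ± 0.12, with edgeR adjusted p between 0.00345 and 0.0129. Eif4ebp1 and Eif3j2 were lower as well, with -0.61 and -0.29. Eif2s3x was higher with 0.38 ± 0.10 (SE; edgeR adjusted p = 0.0143) and Eif2b5 with 0.46 ± 0.14 (0.0267), and so were Eif5a2, Eif3f and Eif3l, with 0.97, 0.35 and 0.34. The values of Eif2b5 (18.7 to 25.6 CPM in controls, 23.0 to 34.1 in the knockdown) and of Eif3f overlapped between the groups, and Eif5a2 ranged from 54.0 to 128 CPM within the knockdown. Eif5 itself did not pass, with a difference of -0.26 (adjusted p = 0.0621).

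These calls depend on the fit and on single libraries. With the 9 libraries of Day 2 fitted alone only Eif3c (adjusted p = 0.0171) and Eif1 (0.0297) passed, and with the LUC-1 libraries left out 7 members did, as without the PCBP1 SH1 library of Day 2. With library totals 21 passed, 20 of them higher, on a scale that moved the median of all genes by 0.23. With globin-free totals 15 passed, 9 higher and 6 lower, and that median moved by 0.126. At Day 2 globin transcripts took 27.6 to 33.5% of reads in the controls and 24.7 to 26.6% in the PCBP1 knockdown. The summed TPM of the 6 megakaryocyte markers lay at 246 to 351 in the controls and at 411 to 477 in the knockdown, the granulocyte markers at 662 to 1212 and 1081 to 1548, and the progenitor markers at 4.19 to 6.95 and 7.28 to 8.40. On the TMM scale of the test, 0 of the 6 granulocyte markers passed and all 6 differences were negative, 1 of the 6 megakaryocyte markers was lower, and 1 of the 6 progenitor markers was higher. Their part in the result was not tested.

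**Figure D4:**
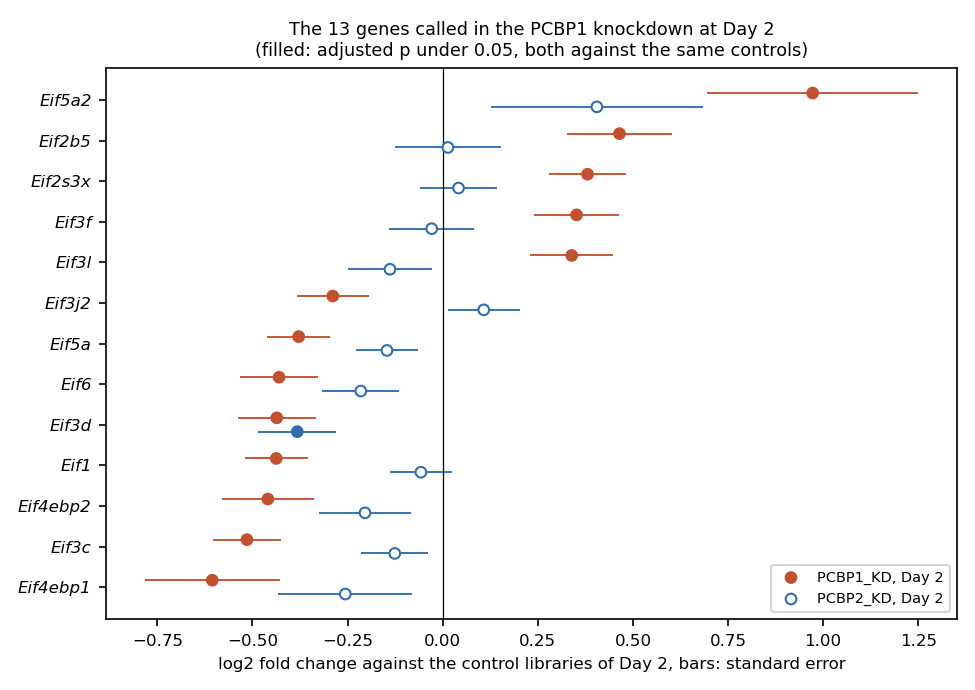
Log2 difference from the Day 2 controls (horizontal axis, bars give the standard error) for the 13 genes called in the PCBP1 knockdown, with the PCBP2 knockdown beside it. The points of the 2 knockdowns share the same controls, filled points have an adjusted p under 0.05, and Eif3d is the single gene filled for both.

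The PCBP2 knockdown differed from the controls at Day 2 in 1 member, Eif3d, where 4.67% of all genes passed (0.954% higher and 3.72% lower). Of the members, 7 had an unadjusted p under 0.05. Eif3d, the eIF3 subunit that can itself bind a cap, stood at 148, 136 and 187 CPM in the controls, with LUC-1 the highest, and at 118, 118 and 125 in the PCBP2 knockdown. The groups did not overlap, and the log2 difference was -0.38 ± 0.10 (SE; edgeR adjusted p = 0.0326). Without the LUC-1 libraries the adjusted p was 0.19, and with the 9 Day 2 libraries alone it was 0.243. On library totals the difference of Eif3d was -0.17 (adjusted p = 0.27) and on globin-free totals -0.25 (0.131). In the PCBP1 knockdown, against the same controls, Eif3d stood at 112, 124 and 111 CPM. The next members by p were Eif1a with 0.30, Eif4a2 with 0.31 and Eif2d with -0.27, none of which passed.

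The direct comparison of the knockdowns at Day 2 does not set them against the controls, though the control libraries enter the scaling and the spread of the fit. PCBP2 knockdown differed from PCBP1 knockdown in 12 members, beside 12.3% of all genes (4.83% higher and 7.5% lower), with edgeR adjusted p from 0.00446 to 0.0344. Eif1 and Eif3c were higher in the PCBP2 knockdown by 0.38 and 0.39 on the log2 scale, as were Eif3j2, Eif1a and Eif4enif1 by 0.40, 0.35 and 0.30. Eif3l, Eif2b5, Eif3m, Eif3f, Eif4g1, Eif2s3x and Eif2d were lower, by -0.48 for Eif3l to -0.33 for Eif2d. With the 9 Day 2 libraries fitted alone none of them passed. Without the PCBP1 SH1 library of Day 2 4 members passed, without PCBP1 SH4 or PCBP2 SH1 7, and without PCBP2 SH4 5.

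Among partners of the pathway, 4 initiation regulators were higher and 7 lower in the PCBP1 knockdown at Day 2, and 2 elongation and termination genes higher and 4 lower. Those with the smallest p were the elongation factor 2 kinase Eef2k with a log2 difference of -0.74, the eIF4E kinase Mknk1 with -0.56, the RNA-activated eIF2 kinase Eif2ak2 with 0.68 and the decay factor Upf1 with -0.55. Of the 8 stress and growth genes 5 were lower and none higher: Atf5 with -1.29, Chac1 with -1.30, Trib3 with -1.21, Ddit3 with -0.61 and Atf4 with -0.49. In the PCBP2 knockdown, against the same controls, 1 regulator was higher and 2 lower, and 2 elongation genes were lower. They were led by Gcn1l1 with -0.72, Impact with 0.56, Mknk1 with -0.48 and Eef2k with -0.44. At Day 0 the ribosomal S6 kinase gene Rps6kb2 was lower in the PCBP1 knockdown with -0.60 (edgeR adjusted p = 0.0311), and no other of these genes passed.

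At the level of transcripts, 224 of the 272 member transcripts were tested and 141 passed between the days in the controls, 55 higher and 86 lower (62.9%, beside 61% of all transcripts tested, 30.4% higher and 30.6% lower). With PCBP1 knocked down 134 passed (59.8%, beside 58.3%) and with PCBP2 knocked down 137 (61.2%, beside 60.9%). A transcript's share within its gene was tested with edgeR's diffSpliceDGE. That share changed for 57 of 206 member transcripts in 21 genes (27.7%), where 14.8% of all transcripts passed. Of the shares, 45 changed with PCBP1 knocked down (21.8%, beside 12.5%) and 51 with PCBP2 knocked down (24.8%, beside 16.5%). Of 61 retained-intron transcripts tested 17 passed, 16 with a rising share and 1 with a falling one. Of 23 processed transcripts without an annotated reading frame 10 passed, all with a rising share. Of 111 protein-coding transcripts 25 passed, 15 rising and 10 falling, and of 11 annotated as targets of nonsense-mediated decay 5 passed, 2 rising and 3 falling. Counts by kind were not made over all genes, so whether these splits are particular to the members was not tested. The helicase gene Eif4a1 gave 10 of the 57. The quantifier's error in dividing reads among transcripts is not in these tests, and transcripts of a gene share reads.

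The rise of Eif5, 32.0-fold on the TMM scale, came with a different mix of its transcripts. Eif5-201 and Eif5-202 both hold an open reading frame of 1287 bases, and differ in their first exon and at the 3′ end, where the last exon has 395 bases in Eif5-201 and 2224 in Eif5-202. Eif5-201 took 28.4, 28.2 and 27.9% of the gene's estimated reads in the Day 0 controls and 53.4, 57.6 and 54.8% at Day 2. Eif5-202 took 71.6, 71.8 and 72.1% and then 46.6, 42.4 and 45.2%. In all 9 Day 2 libraries Eif5-201 had at least 46.1% of the reads, above the highest Day 0 share of 28.9%. In the controls the tests of the share gave an adjusted p of 1.38e-05 for Eif5-201 and 0.00441 for Eif5-202 (edgeR diffSpliceDGE).

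The scaffold Eif4g3 changed its leading transcript. The long Eif4g3-202 (6139 bases, 35 exons) took 33.2, 31.9 and 35.3% of reads in the Day 0 controls and 2.11, 0 and 0% at Day 2, while Eif4g3-212 (22 exons), which starts further downstream, took 1.76, 1.69 and 2.55% and then 47.5, 40.5 and 49.7%. In Eif4enif1 the share of Eif4enif1-202 went from 8.31, 9.84 and 6.33% to 39.3, 47.9 and 34.4%, and that of Eif4enif1-203 from 59.4, 58.4 and 62.6% to 21.4, 20.6 and 33.3%. The share of the hypusinated factor's transcript Eif5a-202 rose from a mean of 2.28% to 11.8%. All 5 shares changed with an adjusted p of 5.62e-04 or less in edgeR's diffSpliceDGE test.

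**Figure D5:**
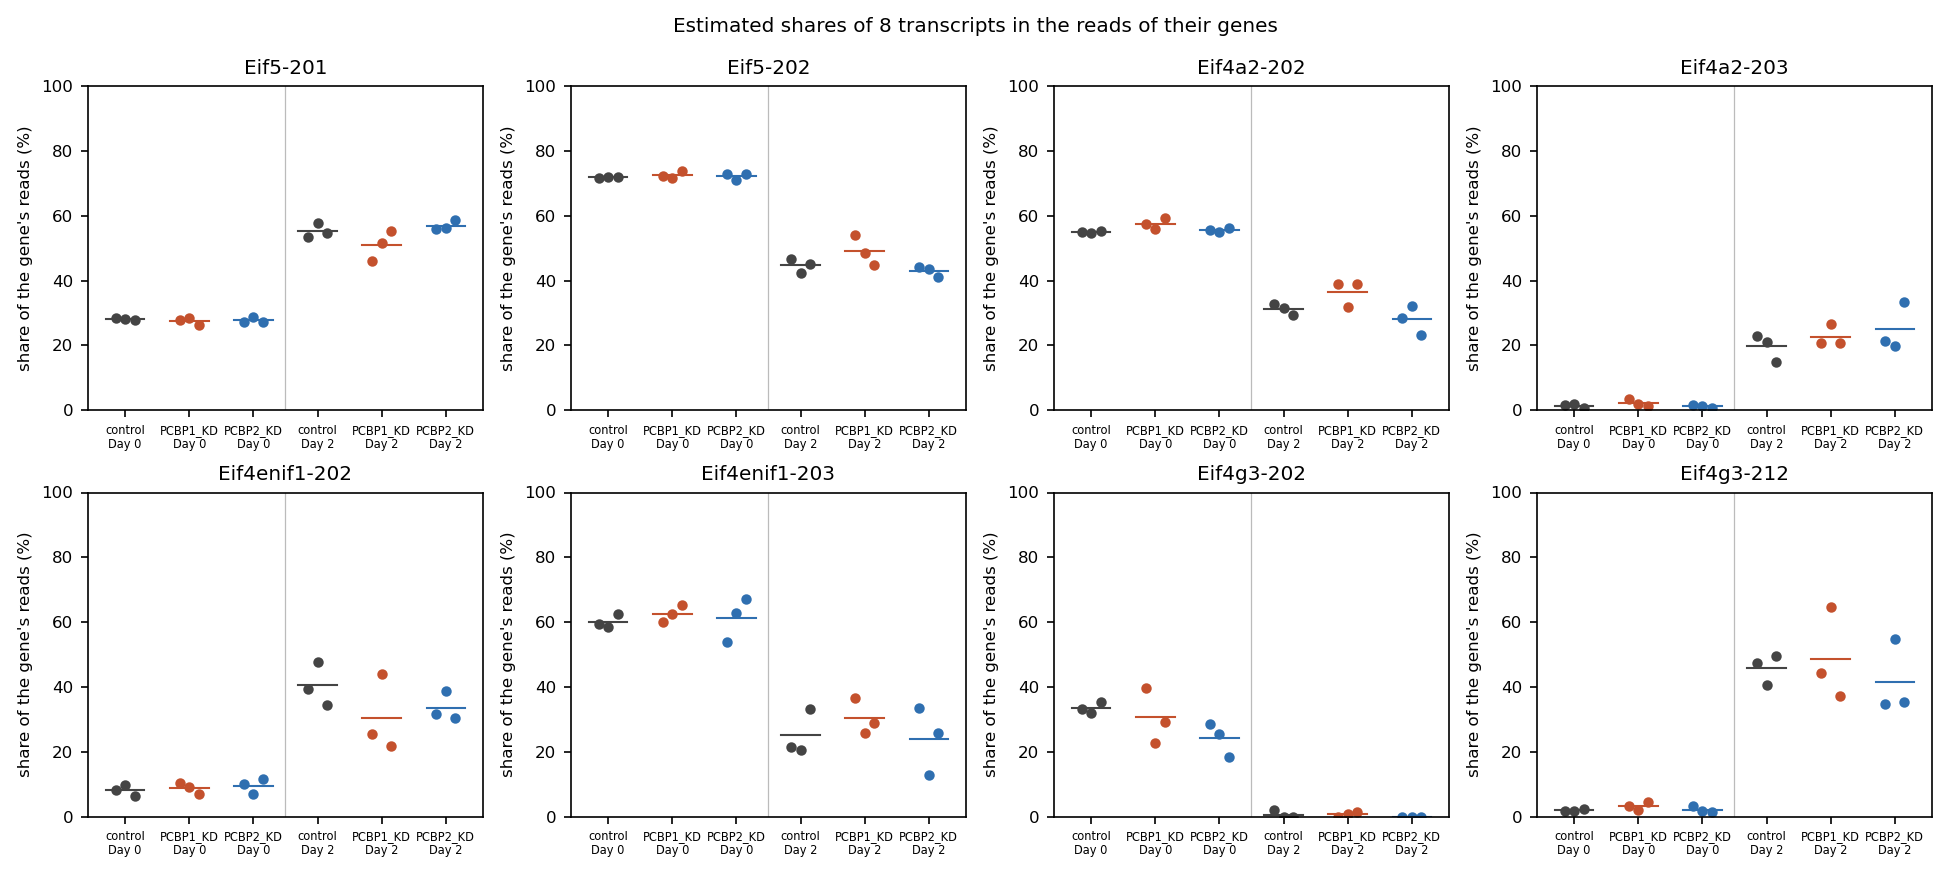
Share of 8 transcripts in the estimated reads of their gene (percent, vertical axis) in the 18 libraries, by condition and day, with a line at each group mean. Eif5-201, Eif4a2-203, Eif4enif1-202 and Eif4g3-212 lie higher in all Day 2 libraries, and Eif5-202, Eif4a2-202, Eif4enif1-203 and Eif4g3-202 lower.

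The knockdowns changed few transcript shares. For PCBP1, 1 member transcript passed at Day 0 and 2 at Day 2 (beside 0.597% and 1.23% of all transcripts), and for PCBP2 0 (8 at an unadjusted p under 0.05 in edgeR's diffSpliceDGE) and 2 (beside 0.251% and 1.06%). The change of a share between days differed from that of the controls for 3 member transcripts with PCBP1 knocked down (beside 0.57% of all transcripts) and for 2 with PCBP2 knocked down (beside 0.492%). Eif5a-206, called at Day 2 in both comparisons against the same controls, took at most 0.705% of the gene's reads in any library. Of transcript levels, 9 passed at Day 2 in the PCBP1 knockdown (beside 3.26% of all transcripts), among them the main transcripts of Eif3c and Eif1, Eif3c-201 with -0.48 and Eif1-201 with -0.36, and Eif5-201 with -0.35. For PCBP2 there were 2 (beside 0.919%).

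The authors' deposited tables of local splicing variations compare pooled knockdown with pooled control libraries and give no values by library. The authors' deposited tables list 753 and 756 variations in 48 member genes for PCBP1 and PCBP2 at Day 0, and 730 and 728 at Day 2. In the authors' deposited tables none of them reaches a probability of 0.95 for a change of at least 0.20 in junction use, a level that 0.0573% and 0.0115% of all variations reach at Day 0 and 0.191% and 0.0718% at Day 2. At a probability of 0.50 the authors' deposited table holds 1 member variation, in Eif4g3 in the PCBP1 knockdown at Day 0, where junction chr4:138178010-138180490 is used at 66.0% against 41.1% in the control.

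Across the days, the control columns of the authors' deposited tables hold 717 member variations at both times, of which 22 (3.07%, in 9 genes) move by 20 points or more, beside 5.19% of all 82400 variations. The largest is in Eif4a2. In the authors' deposited table the junction chr16:23111896-23112351 falls from 80.6% to 19.2% use in the controls, and chr16:23111896-23113167 rises from 18.9% to 79.4%. With PCBP1 knocked down the authors' deposited table gives 76.5% and 28.2% for the first, and 23.3% and 71.5% for the second. The first leads into an exon that is the last of Eif4a2-202, whose reading frame of 1086 bases ends soon after the junction. The second leads into the last exon of Eif4a2-203, with a frame of 1224 bases. Counted at that second exon, the authors' deposited table gives the direct junction at 14.4% and 68.8% in the controls. Junctions chr16:23112457-23113167 and chr16:23112461-23113167, which join the first exon onward to it, go from 30.6% and 53.6% to 9.3% and 17.9%. The first exon was thus also spliced onward and was not only a last exon. The transcript estimates moved alike: Eif4a2-202 took 54.9, 54.6 and 55.4% of reads in the Day 0 controls and 32.9, 31.4 and 29.2% at Day 2, and Eif4a2-203 took 1.55, 2.00 and 0.798% and then 22.9, 21.1 and 14.99%. The 20 bases on either side of each junction are shown, read from the GENCODE transcripts on GRCm38, with the stop codon of Eif4a2-202 in capitals:
Eif4a2-202 junction: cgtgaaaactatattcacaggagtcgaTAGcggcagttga
Eif4a2-203 junction: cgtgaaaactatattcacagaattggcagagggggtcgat

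In 3 other genes a coding exon was skipped at Day 2 by a junction that is not in the annotation. In the authors' deposited table the Eif2d junction chr1:131163565-131164620 goes from 0% to 56.2% in the controls, from 1% to 61.4% in the PCBP1 knockdown and from 6.7% to 57.9% in the PCBP2 knockdown. Counted at the exon it leads into, the authors' deposited table gives 0% and 44.2%, 0.7% and 55.3%, and 3.4% and 45.7%. For Eif2s1, the authors' deposited table gives chr12:78877243-78881132 at 0.4% and 28.3% in the controls. For Eif4g1, the authors' deposited table gives chr16:20687275-20688539 at 0% and 20.9% in the controls, and at 10.4% in the PCBP1 knockdown and 22.3% in the PCBP2 knockdown at Day 2. The skipped exons lie at chr1:131164403-131164506 (104 bases), chr12:78879951-78880057 (107 bases) and chr16:20687381-20687462 (82 bases), all on the plus strand of GRCm38. None of the lengths is a multiple of 3, so leaving each out shifts the reading frame. They are given without capitals, since no shorter stretch is singled out:
Eif2d skipped exon: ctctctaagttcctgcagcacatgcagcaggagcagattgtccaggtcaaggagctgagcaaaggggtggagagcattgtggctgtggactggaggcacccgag
Eif2s1 skipped exon: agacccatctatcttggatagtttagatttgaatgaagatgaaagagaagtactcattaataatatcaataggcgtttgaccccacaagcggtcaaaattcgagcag
Eif4g1 skipped exon: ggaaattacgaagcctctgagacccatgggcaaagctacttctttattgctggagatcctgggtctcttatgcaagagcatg

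Shifts of 20 points or more were also found in Eif4enif1, Eif4h, Eif4a1, Eif2s3y and Eif3j1. The Eif4enif1 junction chr11:3230101-3240895 is not in the annotation either, and the authors' deposited table gives it at 1.6% and 24.6% in the controls. At Day 2 the authors' deposited tables give it at 8.8% in the PCBP1 knockdown and 10.6% in the PCBP2 knockdown. In the authors' deposited table the Eif4h junction chr5:134624500-134625366 goes from 46.6% to 66.9% in the controls, and the Eif4a1 junction chr11:69670747-69672279 from 5.1% to 27.8%. Pooled columns carry no spread, so these differences by day have no test.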

How the data were processed

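RNA was sequenced from 18 libraries. Per the submitters' processing notes, FastQC 0.11.9, Trim Galore 1.46.0, STAR 2.5.3a, SAMtools 1.9 and Salmon 0.11.3 were used with build GRCm38. Per the file headers, the deposited transcript tables hold estimated counts (NumReads) and TPM. The authors also deposited tables of local splicing variations, with junction use as an expected fraction per pooled group and probabilities of a change. Their tool is not given in the sources used here.

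Of 111706 listed transcripts, 110403 matched GENCODE M21 and 1303 did not (0.275 to 0.579% of reads). Deposited estimated counts were summed per gene and rounded, filtered with filterByExpr (17500 genes), scaled with TMM and fitted over all 18 libraries and 6 groups with edgeR 4.0.16 (limma 3.58.1, R 4.3.3; robust quasi-likelihood test, Benjamini-Hochberg over all genes, threshold 0.05). Transcripts were fitted likewise, and their shares tested with diffSpliceDGE. DESeq2 1.42.0 was an alternative. CPM are TMM-scaled, SE is the standard error, and the deposited TPM was used for levels between genes. The code was tested on simulated data. The summed level of the erythroid marker list is not reported here. Members and lists were chosen with earlier results of these data known. Per comparison, full statistics go to at most the 8 called members with the smallest p, the others by value or count, and up to 4 pathway genes are named.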

Additional observations from a re-analysis of the deposited data

Results flagged for a closer look

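For 5 combinations of a member transcript and a knockdown, the change of the transcript's share between Day 0 and Day 2 differed from that in the controls by the test of the difference itself (edgeR diffSpliceDGE, Benjamini-Hochberg adjusted). For the PCBP1 knockdown they were Eif2a-207 (adjusted p = 0.0158), Eif4enif1-213 (8.33e-05) and Eif5a-206 (0.00999), beside 0.57% of all transcripts. For the PCBP2 knockdown they were Eif2d-207 (0.047) and Eif5a-206 (0.0354), beside 0.492%. Both knockdowns are set against the same controls.

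All 4 transcripts had estimated shares at or near 0 in several libraries. Eif5a-206 took 0.705, 0.703 and 0.0915% of reads in the Day 0 controls and estimates at or near 0 in the Day 2 controls. Eif4enif1-213 had estimates near 0 in the Day 0 controls and in SCR-1 of Day 2, with 2.28 and 7.17% in SCR-2 and LUC-1. In the PCBP1 knockdown it took 1.64, 1.48 and 0.712% at Day 0, and at Day 2 estimates near 0 with SH1 and SH3 and 3.31% with SH4. Eif2a-207, annotated as a target of nonsense-mediated decay, took 3.88% in SCR-1 and estimates near 0 in the other Day 0 controls, and 13.52, 11.85 and 35.2% at Day 2. In the PCBP1 knockdown it took 6.10, 3.09 and 9.39% at Day 0, and at Day 2 3.69% with SH3 and estimates near 0 with SH1 and SH4. Eif2d-207 took at most 1.09% in any library. The groups of 3 libraries are too small for a check of single outlying libraries.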

How the results depend on the processing

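The counts of members that changed between the days were 46 in each condition, with 45 to 47 (control), 45 to 47 (PCBP1 knockdown) and 44 to 47 (PCBP2 knockdown) when each library was left out. With the hairpin as a replicate block they were 46, 46 and 46, with 0 and 0 for the difference of that change from control, and with the hairpin number as a replicate block over the 12 knockdown libraries the knockdowns differed in 0 members at Day 0 and 12 at Day 2. Same-named libraries of the 2 days carry the same hairpin. They correlated by -0.0092 to 0.0418 in their deviations, and 5 of 9 correlated best with their own name. Deviations from means of 3 libraries cannot show whether the samples are paired.

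Reversed directions between the days in the controls came only from scaling. On library totals the log2 changes were -1.10 for Eif2s1, -0.93 for Eif2s3y, -1.11 for Eif3c, -1.09 for Eif3j1, -0.65 for Eif3j2, -0.67 for Eif4ebp1, -0.11 for Eif4ebp2 and -0.12 for Eif5a2. On globin-free totals they were -0.57 for Eif2s1, -0.41 for Eif2s3y, -0.59 for Eif3c, -0.56 for Eif3j1, -0.12 for Eif3j2 and -0.15 for Eif4ebp1. The cause was not tested.

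Counts of calls moved as follows, and the causes were not tested. The shares of all genes that passed in these alternative fits are not given beside the counts. PCBP1 knockdown at Day 0 (0) gave 2 with DESeq2 and 4 with the day's 9 libraries alone. PCBP1 knockdown at Day 2 (13) gave 21 on library totals, 2 with 9 libraries alone, 2 with these and the GC trend removed, 7 with both LUC-1 libraries left out, 2 with the 8 other Day 2 libraries alone, and 7 to 14 without each library. PCBP2 knockdown at Day 2 (1) gave 4 with DESeq2, 2 on library totals, 2 on globin-free totals, 2 without a filter, 0 with the GC trend removed, 0 with 9 libraries, 0 with these and the GC trend removed, 0 with 8, and 1 to 2 without each library. Eif3d was not among the genes called on either of those totals. PCBP2 against PCBP1 knockdown gave 1 (DESeq2) and 2 (9 libraries) in place of 0 at Day 0. At Day 2, in place of 12, it gave 0 with 9 libraries, 1 with these and the GC trend removed, 4 with 8 and 4 to 17 without each library. The value of 4 came without PCBP1 SH1. The difference of the day change for PCBP1 (0) gave 5 with DESeq2, 1 without a filter, 2 with the GC trend removed, 1 without both LUC-1 libraries and 0 to 2 without each library, with 2 when LUC-1 of Day 2 was left out. The splicing count for PCBP1 at Day 0 gave 1 at a probability of 0.50. Transcript calls were 125 to 135 and share calls 43 to 56 without each control library, and 113 and 42 among transcripts with a mean of 50 reads. Leaving out LUC-1, the 8 libraries, the GC trend with 9 libraries and globin-free totals were added after seeing the data.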
